A study of Mus musculus with 6 samples.

Results

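The 10 lymphatic endothelial marker genes Lyve1, Prox1, Pdpn, Reln, Mmrn1, Itga9, Stab1, Stab2, Thy1 and Tbx1 were followed in sorted blood endothelial cells of the mouse intestine. They were chosen as a fixed list of gene symbols, out of 22180 genes that the array's annotation gave at least 1 probe set of their own. Each of the 10 had 1 such probe set, so no choice between probe sets was needed. Of the 10, 9 had a mean over the arrays above background (a log2 value of 4.12) and could be tested, as could 15284 of all genes. Stab2 lay below background on all 6 arrays.

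The knockout mice were adults carrying Apcfl//fl and Villin-CreERT2, and the control mice were labelled WT, Apcfl//fl, with no Cre named. Both groups received tamoxifen on 5 days, were on a mixed C57BL/6 x 129 background and were taken on day 6, with 3 biological replicates each. The villin promoter drives the inducible Cre in intestinal epithelium, so Apc, a brake on Wnt signalling, was removed from epithelial cells and not from the endothelial cells that were measured. After collagenase digestion, live CD31+ cells without CD45, EpCAM or gp38 were sorted, and amplified RNA was hybridised to mouse gene arrays from Affymetrix (type 2.0 ST), 1 array per sample. The labels do not say whether animals were pooled.

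Lymphatic endothelium lines the vessels that drain tissue fluid and, in the villi, the lacteals that carry absorbed fat. Its identity depends on the transcription factor PROX1, and its growth on the ligand VEGF-C, which acts through the receptor VEGFR-3, the product of Flt4. Blood endothelium lacks PROX1 and most other lymphatic markers, but single markers are less strict. LYVE1, STAB1 and STAB2 are scavenger or hyaluronan receptors that some macrophages and sinusoidal endothelia also carry. The gp38 antigen used to remove lymphatic cells in this sort is podoplanin, the product of Pdpn, so the sort itself was directed against a listed gene.

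Several of these markers lay at or near background. Prox1 and Mmrn1 were above background on 4 of 6 arrays each, and Stab2 on 0. Blood endothelial genes stood far above background, with means of 12.3 in the knockout and 12.1 in the control for Plvap, the fenestral diaphragm protein. The cadherin gene Cdh5 changed by -0.052 ± 0.044, and Pecam1, which encodes CD31, averaged 11.4 in both groups. Of 18 such genes 2 rose, 0 fell and 16 did not pass (median 0.15), beside 2.61% of all genes called. Of the 18, 9 had an unadjusted p under 0.05 in limma, beside 16.4% of all genes. The groups were apart for 11 of them, 9 higher and 2 lower in the knockout. Over all genes they were apart for 22.1%, with 9.79% higher and 12.3% lower. Their mean was 10.69 to 10.77 on the knockout arrays and 10.62 to 10.66 on the control arrays, so every knockout array lay above every control array. The samples thus held much endothelial RNA, but CD31, the product of Pecam1, was itself the antigen sorted for. Some genes of other cells were also bright. Rgs5, a gene of mural cells, averaged 10.98 in the knockout and 11.68 in the control. Fabp2, a gene of enterocytes, was at 11.85 in control 2 and lay lower on every knockout array. Whether the listed genes tell blood from lymphatic endothelium was not tested. Since these are bulk samples, fewer cells of a type and less RNA per cell cannot be told apart.

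Between the groups, Lyve1 rose 2.19-fold in the knockout, and it alone of the 9 tested markers passed (limma, adjusted p = 0.0406). The other 8 did not pass, with log2 changes from -0.30 for Pdpn to 0.41 for Stab1. The 1 of 9 called stands beside 2.61% of all genes called (399 of 15284), of which 1.13% were higher and 1.48% lower. At an unadjusted p of 0.05, 2 of the 9 passed, against 16.4% of all genes. The median change of the 9 was 0.18, beside -0.017 over all genes tested, with 7 positive and 2 negative.

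**Figure D1:**
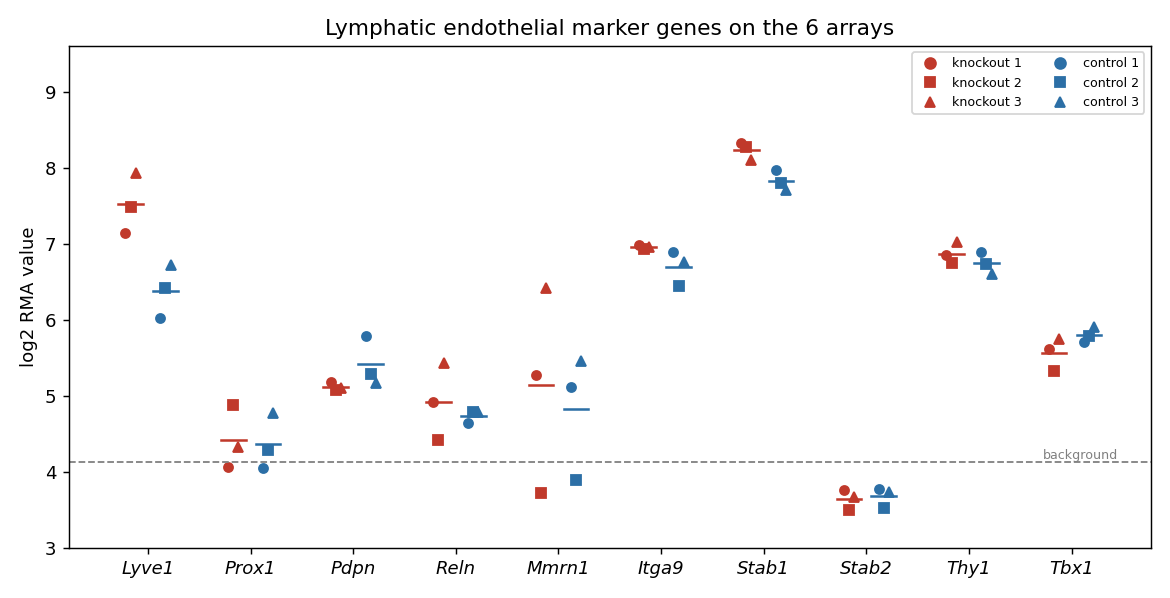
Log2 RMA value of each marker (vertical axis) on the 3 knockout arrays (red) and 3 control arrays (blue), with group means as bars and the background level of 4.12 as a dashed line. Lyve1 lay between 7.13 and 7.93 in the knockout and between 6.02 and 6.72 in the control, while Stab2 lay below background throughout.

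LYVE1 is the hyaluronan receptor of lymphatic capillaries. Its log2 values were 7.13, 7.48 and 7.93 in knockouts 1, 2 and 3, and 6.02, 6.42 and 6.72 in controls 1, 2 and 3. Every knockout array was above every control array, with a gap of 0.42 between the nearest. The change was 1.13 ± 0.23 (standard error of the fit), a fold with a 95% interval from 1.52 to 3.15. The call ended when knockout 2 (adjusted p = 0.0959), knockout 3 (0.129), control 1 (0.0813), control 2 (0.104) or control 3 (0.0607) was left out in turn, with Lyve1 still higher in the knockout each time. With no filter on dim genes the adjusted p was 0.0525 and without the variance trend 0.0773.

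STAB1 and STAB2 are large, related scavenger receptors of sinusoidal and lymphatic endothelium, and STAB1 is also made by tissue macrophages. Stab1 was at 8.32, 8.27 and 8.10 in the knockout and at 7.97, 7.79 and 7.71 in the control. The groups were apart, by 0.13 at the nearest arrays. The change of 0.41 ± 0.11 did not pass (adjusted p = 0.103), and its 95% interval ran from 1.11-fold to 1.58-fold higher. Stab2 was at 3.75, 3.49 and 3.67 in the knockout and at 3.78, 3.52 and 3.73 in the control. Its groups overlapped below background, so no fold is given.

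Markers of macrophages, the other main source of Lyve1 and Stab1, were measured beside them. Of 15 listed genes 13 were above background and 0 passed in limma, beside 2.61% of all genes called. At p under 0.05 before adjustment there were 0, beside 16.4% of all genes, and the median change was 0.099. Of the 13 changes 9 were positive and 4 negative. For 1 gene every knockout array was above every control array, beside 9.79% of all genes. The mean of the list was 5.69 to 5.99 on the knockout arrays and 5.54 to 5.83 on the control arrays, so the groups overlapped. Cd68, a lysosomal protein, averaged 7.98 and 7.92, and the chemokine receptor gene Cx3cr1 averaged 7.44 and 7.45. Other genes of the list, given after their values were seen, went both ways or were dim. The complement gene C1qa averaged 7.02 in the knockout and 6.55 in the control (0.47 ± 0.23, adjusted p = 0.347), and the Fc receptor gene Fcgr1, whose groups were apart, changed by 0.29 ± 0.14 (adjusted p = 0.337). Csf1r changed by -0.27 ± 0.17 (adjusted p = 0.485), and Folr2 averaged 5.21 in the knockout and 5.31 in the control. Mrc1 and Timd4 were above background on 5 arrays each, Cd163 on 1 and F13a1 on 0. The part of macrophage RNA in the Lyve1 and Stab1 values was not tested.

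Prox1, the gene for the factor that sets lymphatic identity, did not separate the groups. Its values were 4.06, 4.88 and 4.33 in the knockout and 4.04, 4.28 and 4.77 in the control. Knockout 1 and control 1 lay below background, and knockout 2 and control 3 were the highest of their groups. The change was 0.056 ± 0.25 (adjusted p = 0.94), with a 95% interval from -0.50 to 0.61. It overlaps the interval of the Lyve1 change, from 0.61 to 1.66, and the difference between both changes was not tested. Near background a change on this scale is understated.

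Tbx1 encodes a T-box factor needed for lymphatic vessel growth. It was at 5.61, 5.33 and 5.74 in the knockout and at 5.71, 5.78 and 5.91 in the control. The groups overlapped, and the change was -0.24 ± 0.15 (adjusted p = 0.497).

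Pdpn encodes the membrane mucin podoplanin, the antigen that the sort excluded. Its values were 5.17, 5.07 and 5.10 in the knockout and 5.79, 5.29 and 5.17 in the control. Control 1 was the highest array, and the groups overlapped only at control 3, which was level with knockout 1. The change was -0.30 ± 0.18 (adjusted p = 0.461), with a 95% interval from -0.71 to 0.10. Without control 1 the change was -0.11. Podoplanin is also made by fibroblasts and mesothelium. Fibroblast genes had a median change of -0.074, with 10 of 15 changes negative and 5 at an unadjusted p under 0.05 (16.4% of all genes). The groups were apart for 5, all lower in the knockout, beside 12.3% of all genes apart and lower. In limma 1 of the 15 passed, beside 2.61% of all genes called. It was the collagen gene Col1a2 (8.27 in the control and 7.44 in the knockout, adjusted p = 0.0433). The matrix gene Fn1, the brightest of that list, averaged 8.78 and 8.67. The list mean was 6.07 to 6.33 on the knockout arrays and 6.16 to 6.62 on the control arrays, and control 1 was again the highest. Mesothelial genes had 0 of 6 past limma's threshold, beside 2.61% of all genes (2 with an unadjusted p under 0.05, beside 16.4%). Their list means were 5.27 to 5.47 in the knockout and 5.49 to 5.64 in the control. The 2 brightest, Nkain4 and Krt19, were at adjusted p-values of 0.264 and 0.0601. Among the controls both were lowest in control 1 (6.78 and 6.77), as was the enterocyte mean given below. The part of epithelial RNA in Krt19 was not tested. The other genes of the list, given after their values were seen, were mixed. Msln, Upk3b and Wt1 averaged 4.86, 4.84 and 5.41 in the knockout and 4.85, 4.77 and 5.52 in the control, above background on all 6 arrays. Upk1b averaged 4.30 and 4.21. Lrrn4 and Bnc1 were below background on all 6 arrays, and Gpm6a was above it on the 3 control arrays and on 0 knockout arrays. The part of these cells in the Pdpn values was not tested.

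Reln and Mmrn1 encode secreted proteins of lymphatic endothelium, the matrix signal reelin and the coagulation factor V binding protein multimerin. Mmrn1 was at 5.27, 3.72 and 6.42 in the knockout and at 5.11, 3.89 and 5.45 in the control. The spread within each group was wide (SD 1.36 and 0.82), with 1 array of each group, replicate 2 in both, below background and replicate 3 the highest in both. The change of 0.32 ± 0.62 did not pass (adjusted p = 0.852), and its interval from -1.09 to 1.73 covers both large rises and large falls. Reln was at 4.91, 4.41 and 5.43 in the knockout and at 4.65, 4.78 and 4.78 in the control. Knockout 3 was the highest and knockout 2 the lowest array for both genes, but the controls lay within 0.14 of each other for Reln and not for Mmrn1. The Reln change was 0.18 ± 0.23 (adjusted p = 0.754).

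The arrays thus ranked differently by marker. Knockout 3 was the highest array for Lyve1, Reln, Mmrn1 and Thy1, and knockout 2 for Prox1. Knockout 2 was the lowest for Reln, Mmrn1, Pdpn and Tbx1. For Lyve1 and Prox1 the lowest array was control 1. Multimerin is also a platelet protein. Platelet genes had 0 of 9 past limma's threshold, beside 2.61% of all genes (1 with an unadjusted p under 0.05, beside 16.4%). The platelet list means were 4.96 to 5.22 in the knockout and 5.03 to 5.17 in the control. Their 2 brightest, Pf4 and Ppbp, which encode platelet chemokines, averaged 5.95 and 5.52 in the knockout and 6.13 and 5.51 in the control. The part of platelet RNA in Mmrn1 was not tested.

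ITGA9, the integrin alpha 9 chain of lymphatic valves, is also made by smooth muscle. Itga9 was at 6.98, 6.93 and 6.96 in the knockout and at 6.89, 6.44 and 6.76 in the control. The knockout arrays lay within 0.050 of each other and the groups were apart by only 0.040. The change was 0.26 ± 0.14 (adjusted p = 0.41), and 0.13 without control 2. Of 14 mural genes measured, 6 were called lower and 0 higher (median -0.73), beside 1.48% of all genes called lower. All 14 had an unadjusted p under 0.05 in limma, beside 16.4% of all genes. Of the changes 13 were negative and 1 positive. The positive one was Abcc9, named after its values were seen (0.49 ± 0.17, adjusted p = 0.179), with every knockout array above every control array. The 2 brightest, Rgs5 and the actin gene Acta2, changed by -0.70 and -0.82 (adjusted p = 0.0258 and 0.029).

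Thy1 encodes a small membrane glycoprotein found on lymphatic endothelium, T cells, fibroblasts and neurons. It was at 6.85, 6.74 and 7.02 in the knockout and at 6.90, 6.73 and 6.61 in the control, and the groups overlapped. The change was 0.13 ± 0.13 (adjusted p = 0.703). Genes of T and NK cells had a median of -0.52, with 10 of 11 negative. In limma 0 passed, beside 2.61% of all genes, and 5 had an unadjusted p under 0.05, beside 16.4% of all genes. Gzma and Nkg7, the brightest of that list, encode a granule protease and a granule membrane protein and were at adjusted p-values of 0.0535 and 0.116. The list mean was 4.52 to 4.70 in the knockout and 4.91 to 5.56 in the control. Neuron and glia genes had 0 of 8 past limma's threshold (0 with an unadjusted p under 0.05), and Uchl1 and Ret averaged 6.57 and 6.03 in the knockout and 6.34 and 6.01 in the control. The part of these cells in Thy1 was not tested.

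**Figure D2:**
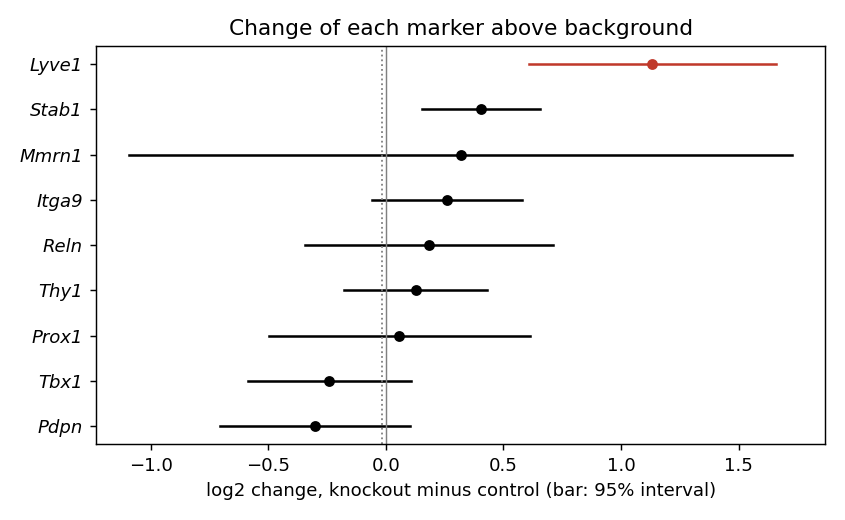
Log2 change, knockout minus control (horizontal axis), of the 9 markers above background, with 95% intervals from the fit over all genes, a solid line at 0 and a dotted line at the median of all genes, -0.017. Lyve1 (red) passed, the interval of Stab1 lay above 0 without passing adjustment, and that of Mmrn1 was the widest.

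Counted by separation, 3 of the 9 markers (Lyve1, Stab1 and Itga9) had every knockout array above every control array, and 0 the reverse. Over all genes the groups were apart for 22.1%, with 9.79% higher and 12.3% lower in the knockout. All 6 arrays were similar over the 15284 genes, with correlations of at least 0.977 within groups and between 0.964 and 0.974 across groups. Enterocyte genes set the controls apart from each other. The mean of 17 enterocyte genes was 5.12 to 5.49 in the knockout, 6.72 in control 1, and 8.65 and 8.22 in controls 2 and 3, and Fabp1 and Fabp2, for fatty acid binding proteins, changed by -3.57 and -3.29 on the log2 scale (adjusted p = 0.00335 and 0.00479). Epcam, for the excluded epithelial antigen, was below background on 4 of 6 arrays, namely every knockout array and control 1. In controls 2 and 3 it was well above background, at 7.20 and 6.24. Ptprc, for CD45, averaged 4.14 in the knockout and 4.46 in the control. Against control 1 alone, the control with the least enterocyte RNA, the Lyve1 change was 1.50 (adjusted p = 0.123) and that of Stab1 0.26 (adjusted p = 0.607), a setting chosen after seeing the data. With 1 control array the spread in this setting comes from the 3 knockout arrays alone and is assumed to hold for the control, here and wherever this setting is named.

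**Figure D3:**
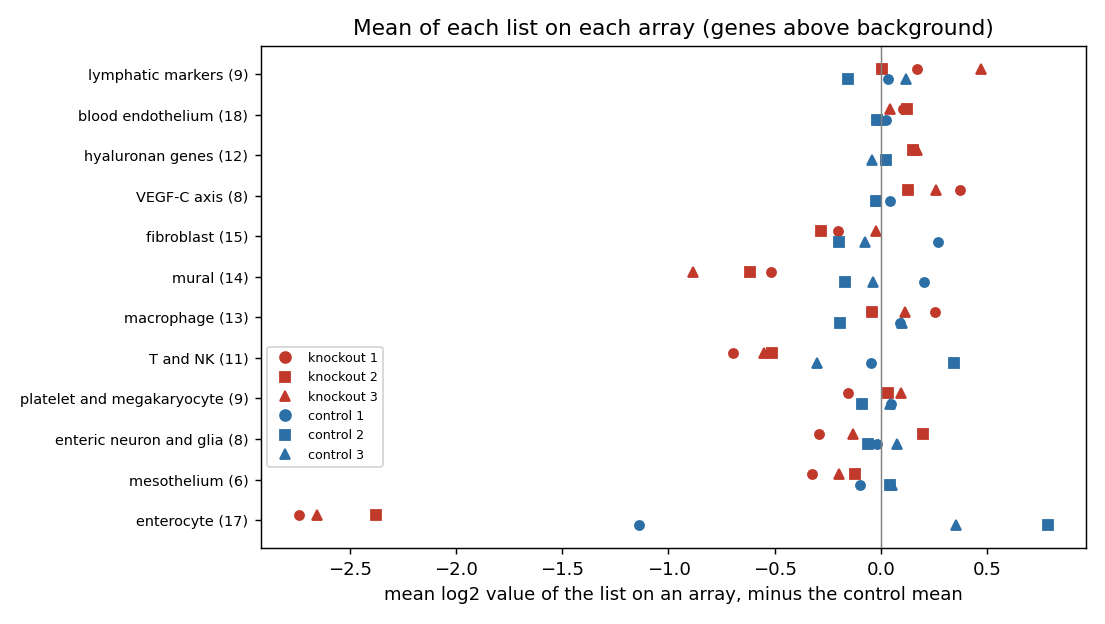
Mean log2 value of each gene list on each array minus the control mean (horizontal axis), for knockout arrays (red) and control arrays (blue), with the number of genes above background in brackets. The 9 lymphatic markers overlapped between the groups, from 0.0062 to 0.47 in the knockout and from -0.15 to 0.12 in the control. The mural, T and NK, mesothelium and enterocyte lists lay lower on every knockout array than on any control array. The blood endothelium, VEGF-C axis and hyaluronan lists lay higher on every knockout array.

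RefSeq promoter windows (build GRCm38.p6, 250 bases before to 50 after a gene's start) were at hand for 8 of the 10 markers, not for Lyve1 and Thy1. The windows of Stab1, the other receptor whose groups were apart, and of the first start of Prox1, the gene of the identity factor, are shown for comparison, 5′ to 3′, with motif matches in capitals. Stab1 lies on the minus strand at chr14:31168592-31168891 and Prox1 on the minus strand at chr1:190170778-190171077.
Stab1: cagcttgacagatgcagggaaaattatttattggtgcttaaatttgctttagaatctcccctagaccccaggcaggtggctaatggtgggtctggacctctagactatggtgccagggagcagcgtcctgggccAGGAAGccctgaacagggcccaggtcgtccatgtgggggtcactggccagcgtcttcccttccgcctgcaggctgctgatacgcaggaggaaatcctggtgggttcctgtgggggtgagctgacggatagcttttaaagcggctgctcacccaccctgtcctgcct
Prox1: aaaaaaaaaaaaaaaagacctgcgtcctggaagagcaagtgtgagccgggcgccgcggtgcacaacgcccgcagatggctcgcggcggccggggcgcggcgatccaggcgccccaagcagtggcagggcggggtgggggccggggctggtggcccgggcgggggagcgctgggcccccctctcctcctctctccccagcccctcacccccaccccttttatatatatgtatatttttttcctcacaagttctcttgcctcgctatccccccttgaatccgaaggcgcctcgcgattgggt

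The motifs searched on both strands were AGGAAG, a core bound by ETS factors, AACAAT for SOX factors, AGATAA for GATA factors and TGGGAA for RBPJ. None of them contains another as spelled, but matches of different motifs can overlap at their ends. The Stab1 window held 1 match, AGGAAG starting 116 bases before the start, and the Prox1 window shown held 0. The window of the other Prox1 start, at chr1:190169466-190169765, held 1 match to the RBPJ motif on the opposite strand, starting 240 bases before that start. Of 32851 windows of this length, 35.4% held AGGAAG, 10.7% AACAAT, 11.2% AGATAA and 25.6% TGGGAA. The matches describe letters only. The GC content was 57.3% for Stab1 and 64.3% for Prox1.

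Beyond the marker list, the factors that specify lymphatic endothelium were followed as a list. Of its 11 measured members, Prox1 and Tbx1 included, 0 passed in limma. Over all genes 2.61% were called, so the lack of calls does not set this list apart. An unadjusted p under 0.05 was found for 1, beside 16.4% of all genes, and 8 changes were negative (median -0.11). Maf, a transcription factor of lymphatic and other endothelium, was at 7.02, 6.11 and 6.64 in the knockout and 7.54, 6.87 and 7.34 in the control (-0.66 ± 0.25, adjusted p = 0.216). Nfatc1, a calcium-regulated factor of valve formation, was at -0.23 ± 0.12 (adjusted p = 0.413). Sox18 and Nr2f2, which act before Prox1 (named after their values were seen), averaged 11.2 and 7.93 in the knockout and 11.2 and 8.04 in the control.

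The VEGF-C axis gave 1 call among 8 measured genes, its receptor, beside 2.61% of all genes called. Flt4, which encodes VEGFR-3, rose from 7.99, 8.17 and 8.18 in the control to 8.77, 8.76 and 8.76 in the knockout. That is 1.57-fold (0.65 ± 0.091, adjusted p = 0.0104), and the groups were apart by 0.58. Flt4 is also made by sprouting blood endothelium, so it marks no lymphatic cell by itself. Of 8 measured genes of the axis 7 did not pass, with a list median of 0.23. The ligand gene Vegfc averaged 9.51 and 9.47. Of the listed genes for proteins that process VEGF-C, Ccbe1 and Adamts3 were below background on all 6 arrays, while Adamts14 was above it on all 6 and averaged 5.22 in the knockout and 4.72 in the control (0.50 ± 0.23, adjusted p = 0.313). These 4 genes were named after their values were seen. The Flt4 call ended without knockout 3 and against control 1 alone (adjusted p of at most 0.0783), and its change was 0.59 to 0.77 over the 16 alternatives.

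Hyaluronan genes, the ligand system of LYVE1 and STAB2, held 2 calls among 12 measured, both higher. Over all genes 2.61% were called, 1.13% higher. The 2 called genes were Lyve1 and Cemip2, which encodes a cell-surface protein that degrades hyaluronan. Cemip2 was at 8.52, 8.74 and 8.89 in the knockout and at 7.73, 8.08 and 7.85 in the control. The change was 1.78-fold (0.83 ± 0.13, adjusted p = 0.0162), with the groups apart by 0.44. Of the other hyaluronan receptor genes of the list (named after their values were seen), Cd44 averaged 5.63 in both groups and Layn averaged 7.47 in the knockout and 7.31 in the control. Hmmr, like Stab2, was below background on all 6 arrays. The list median was 0.049, and Lyve1 and Stab1 belong to it. The Cemip2 call ended without knockout 2, knockout 3 or control 3 and against control 1 alone (adjusted p of at most 0.0884), with changes of 0.74 to 0.99 over the 16 alternatives.

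Lymphatic valve genes gave 1 call among 18, beside 2.61% of all genes called. Gja1, for connexin 43, rose 1.66-fold (0.73 ± 0.12, adjusted p = 0.019), and the list had a median of 0.019 with 10 positive and 8 negative changes. Connexin 43 is widely made outside valves too. The call ended without knockout 1, knockout 3 or control 3, against control 1 alone and with no variance trend, at an adjusted p of at most 0.0823 and with changes of 0.62 to 0.95 over the 16 alternatives.

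Among 12 measured further markers of lymphatic endothelium, 2 rose, 1 fell and 9 did not pass (median -0.0019). Over all genes 2.61% were called, 1.13% higher and 1.48% lower. Beside Flt4, the rise was Angpt2, a ligand of the receptor Tie2 (1.73-fold, adjusted p = 0.0278). The cells were sorted as blood endothelium, and which cell type lay behind the Angpt2 rise was not tested. The fall was Fxyd6, which encodes a regulator of the sodium pump. It was at 7.67, 7.95 and 7.40 in the knockout and at 8.49, 8.80 and 8.76 in the control, a change of -1.01 ± 0.15 (adjusted p = 0.0132). Sema3a, Sema3d, Pard6g and Ptx3 of this list were below background on all 6 arrays (named after their values were seen). Without knockout 3 and without control 3 the count of 3 dropped to 1 each time, and against control 1 alone to 0. The Angpt2 call held in 10 of 16 alternatives and ended with no variance trend, without knockout 2, knockout 3, control 2 or control 3 and against control 1 alone, with changes of 0.69 to 0.92. The Fxyd6 call ended without control 3 and against control 1 alone, with changes of -1.15 to -0.82.

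Regulators of lacteals had 1 rise and 2 falls among 16, beside 1.13% of all genes called higher and 1.48% lower. Ramp3, a partner of the adrenomedullin receptor, rose 1.59-fold (0.67 ± 0.12, adjusted p = 0.0234). Cldn5, for the tight junction protein of blood and lymphatic endothelium, fell by 1.28 on the log2 scale (adjusted p = 0.0137). The fatty acid transporter gene Cd36 fell by 0.25 (adjusted p = 0.038). Most mural genes and the enterocyte genes moved the same way as both falls, and their part in them was not tested. The list median was 0.011, and the count was 0 without knockout 3 and 1 without knockout 1, control 2 or control 3, without the variance trend or against control 1 alone. The Cd36 call held in 9 of 16 alternatives, with changes of -0.28 to -0.16. It ended in each of these settings and with array medians subtracted, with an adjusted p of up to 0.391. The Ramp3 call ended with no variance trend, without knockout 2, knockout 3, control 2 or control 3 and against control 1 alone (0.57 to 0.85), and the Cldn5 call without knockout 1 or knockout 3 (-1.67 to -1.09).

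Binding partners of the markers had 2 rises and 1 fall among 17 (median 0.087), beside 1.13% of all genes called higher and 1.48% lower. Msn, for moesin, which links podoplanin to actin, rose 1.28-fold (adjusted p = 0.0142). Itgb3, the beta 3 integrin chain that binds Thy-1, rose 1.81-fold (adjusted p = 0.0193). Vtn, for vitronectin, a ligand of that integrin, fell by 1.39 (adjusted p = 0.0113), as most mural genes did (median -0.73). The reelin receptor genes Vldlr and Lrp8 and the ITGA9 partner gene Itgb1 (named after their values were seen) were at 0.092, 0.12 and 0.072, with 95% intervals reaching from -0.29 to 0.47 for Vldlr. The count was 0 without knockout 3, without control 3 and against control 1 alone. The Msn call also ended with the mean of a gene's probe sets, with no variance trend and without knockout 1, and the Itgb3 call without control 2. Over the 16 alternatives the changes were 0.32 to 0.65 for Msn, 0.71 to 0.97 for Itgb3 and -1.63 to -1.20 for Vtn.

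**Figure D4:**
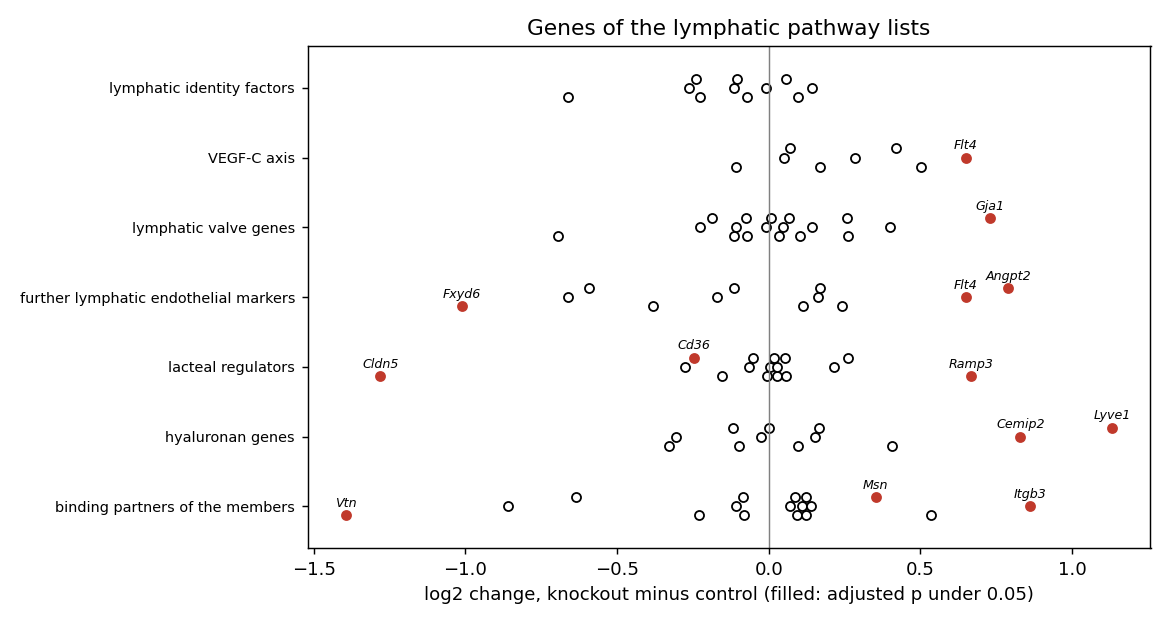
Log2 change, knockout minus control (horizontal axis), of each gene above background in the 7 lymphatic pathway lists, with genes past an adjusted p of 0.05 filled and named. Identity factors hold no filled point, and the named genes lie on both sides of 0.

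In total 12 of the 86 different genes measured in the 7 lists were called, beside 2.61% of all genes. At an unadjusted p under 0.05 there were 1 of 11 identity factors, 2 of 8 genes of the VEGF-C axis, 4 of 12 hyaluronan genes, 4 of 18 valve genes, 7 of 12 further markers, 6 of 16 lacteal regulators and 7 of 17 binding partners, beside 16.4% of all genes. The lists were written with earlier results of these arrays known, so their counts describe these genes and give no independent support. By array, the genes nearest to Lyve1 among 13541 compared were Asns, for asparagine synthetase, Fkbp11, for a chaperone of the secretory pathway, and Pglyrp1, for a peptidoglycan recognition protein. Their root mean square differences over 6 arrays, between values centred on each gene's mean, were 0.198, 0.208 and 0.213. These 3 genes were themselves called higher, with changes of 1.03, 1.34 and 1.21. The centring left the difference between the groups in, so a like group difference enters these matches. Nearest to Prox1 were Sfn, Stx1a and Zmynd10, at 0.0735, 0.108 and 0.118. Zmynd10 was dim, at 3.99 in knockout 1, below background.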

How the data were processed

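The authors deposited 1 table of log2 values from 6 arrays, made with RMA in the oligo package per the submitters' processing notes. RMA corrects background, applies quantile normalization and summarises probes. The version of oligo is not given in the sources used here. Arrays have no read depth, and their number limits the precision.

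Of 41345 probe sets, 23521 carried 1 gene symbol in the platform annotation, 1814 several and 16010 none; only the first were used, with symbols updated by gene identifier and the brightest probe set kept per gene. Genes were tested when their mean over the arrays exceeded the 90th percentile of 1428 chemoreceptor genes (smell, pheromone and taste), which endothelium should lack. Pseudogenes were added to that set after its first count was seen, to bring it closer to an earlier account of these arrays, and before any gene was tested. The groups were tested two-sided in R 4.3.3 with limma 3.58.1, using lmFit and trended eBayes. Benjamini-Hochberg adjustment ran over 15284 genes, with a threshold of 0.05. Every adjusted p comes from this fit, or from its alternatives where named. Changes are knockout minus control and ± is a standard error. Plots used matplotlib 3.10.9.

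Members and lists were chosen with earlier results of these data known. Named genes were the markers, called genes of each pathway list (otherwise the 2 with the smallest p), the 2 brightest of each cell type list, the sort markers and the 3 genes nearest in pattern to Lyve1 and to Prox1, except where said. The fit was tested on simulated data, 10 times with 200 changed genes among 15284. Recovery was 13.3% for changes of 0.5 in log2, 70.0% for 1 and 95.0% for 2. Of its calls, 4.51% were false. The simulated noise was drawn independently for each gene and array, without effects shared by the genes of an array. These rates therefore need not hold for the calls made on the real arrays. Of the lists, lymphatic identity factors, the VEGF-C axis, valve genes, further markers, lacteal regulators, hyaluronan genes, binding partners and 9 cell types were described. Alternatives changed the filter, the scaling, the variance model, how probe sets of a gene were joined, the threshold, weights per array and a replicate block, or left out single arrays.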

Additional observations from a re-analysis of the deposited data

How the results depend on the processing

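Lyve1 was higher in the knockout under all 16 alternatives, with changes of 0.92 to 1.50, but passed in only 8. It did not pass with no filter on dim genes or without the variance trend (1.13 in both). Leaving out single arrays gave 0.92 to 1.32, and control 1 as the lone control, chosen after seeing the data, gave 1.50. The count of called markers was 0 in those settings and 0 to 1 with single arrays left out. Stab1 did not pass under any alternative (adjusted p from 0.0527 to 0.607). Without the variance trend 139 genes were called in place of 399, and 6 in place of 12 on the pathway lists. At an adjusted p of 0.1 there were 768. Without single arrays there were 91 to 379 (lowest without knockout 3, then 128 without control 3, 172 without knockout 2, 194 without control 2 and 217 without knockout 1), and 1 to 11 on the lists. Against control 1 alone there were 52, and 1 on the lists.

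Prox1 changed sign with array weights (-0.035), without knockout 2 (-0.17) and without control 1 (-0.10). Without knockout 3, Reln (-0.072) and Mmrn1 (-0.32) did so, and Mmrn1 also without control 2 (-0.15). Thy1 did so against control 1 alone (-0.027). Over the single arrays left out, changes ran from -0.17 to 0.26 for Prox1, -0.072 to 0.44 for Reln, -0.32 to 1.03 for Mmrn1, -0.42 to -0.11 for Pdpn, 0.13 to 0.36 for Itga9, 0.35 to 0.48 for Stab1, 0.052 to 0.20 for Thy1 and -0.33 to -0.13 for Tbx1. The cause was not tested. Subtracting array medians raised the share of higher genes among those called from 43.4% to 65.9% (463 called), with Lyve1 still called. Over the 15284 genes the replicate numbers did not pair the arrays (correlations of -0.020, -0.0077 and 0.039 between same-numbered deviations). The values of Lyve1 alone did rise with the number in both groups. With the number as a block in limma, Lyve1 was at an adjusted p of 0.0096, its lowest in any setting. In that fit 394 genes were called, and 1 of the identity factors. No array was left out for a fault, and values near background limit Prox1, Mmrn1 and Stab2. The stricter filter on dim genes used the 99th percentile of the chemoreceptor genes, a log2 value of 6.16. Only 4 markers could be tested under it (Lyve1, Itga9, Stab1 and Thy1). Pdpn, Reln and Tbx1 averaged below that level in both groups, so their results too rest on dim values.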
